A study of Mus musculus with 9 samples.

Results

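The genes of cholesterol and fatty acid synthesis were followed through 3 cultures of cells from the embryonic mouse cortex, with 3 arrays for each culture. The members are a list of 32 genes: enzymes that make cholesterol, proteins that sense, move or break down sterols, and enzymes that make fatty acids. A probe set that the platform annotation gives to 1 gene symbol was present for 28 of them, and all 28 were among the 13012 genes tested, out of 22180 with such a probe set. Acat2, Nr1h2, Idi1 and Scd2 were not analysed here, the first 2 because the table used here gave them no probe set of their own symbol and the last 2 because their probe set also carries another symbol. The 28 genes lay above the array median in every array, and the lowest level was 7.45 on the log2 scale of the deposited values.

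All cells came from wild-type mice of the strain CD1. In the co-culture, neurons of embryonic day 16 were grown for 4 days, precursors of embryonic day 13 were then added, and both were kept together for 1 day. The neuron arrays hold cortical neurons of embryonic day 16 grown alone for 5 days in total (another label gives 4 days). The precursor arrays hold cortical precursors of embryonic day 13 grown alone for 1 day. Neurons and precursors therefore differ in embryonic age and in days in culture as well as in cell type, and these cannot be told apart. The labels call the arrays biological replicates, without saying which embryos or days a number marks, so p-values measure the spread between these arrays.

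Cholesterol is built from acetyl units through mevalonate, isoprenoids, squalene and a series of sterols. Brain cells make their own, because lipoproteins of the blood hardly cross into the brain. When membranes of the endoplasmic reticulum run low in sterol, the escort protein Scap carries the transcription factors Srebf2 and Srebf1 to the Golgi, where they are cut free to switch on genes of cholesterol and fatty acid synthesis. Insig1 holds them back when sterol is plentiful, and the liver X receptors, which include Nr1h2, answer to oxidised sterols and switch on the exporters Abca1 and Abcg1 and the gene of Srebf1.

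The cell type labels were checked against marker genes. Of 7 neuronal markers 6 were higher in neurons than in precursors, and the summed linear level of the list was 20520 to 21220 in neurons, against 12420 to 12700 in precursors and 14440 to 14610 in the co-culture. The exception was Tubb3, with mean log2 levels of 11.95 in neurons and 11.96 in precursors. Tubb3 and Map2 (mean 11.74 in precursors) were thus bright in the precursor arrays too. All 6 markers of radial precursors and all 4 tested cell cycle genes were lower in neurons than in precursors. Among the cell cycle genes, Bub1 was at 5.99, 6.36 and 6.01 in neurons, below the array median (6.75 to 6.79 over the arrays). Bub1 was thus tested only through the other cultures, where it was high, and its call is no support. The radial markers summed to 5694 to 6370 in neurons, against 10760 to 11800 in precursors. Vim, the brightest of them (mean 12.30 in neurons and 13.03 in precursors), makes up most of that sum. Its difference of -0.73 was the smallest of the 6, and the largest was -2.03 for Pax6. Among 6 astrocyte markers Gfap, Aqp4 and S100b lay below the filter on dim genes, and of the other 3, Aldoc and Slc1a3 were lower and Aldh1l1 was higher in neurons than in precursors. The astrocyte list summed to 1132 to 1279 in neurons, against 2432 to 2644 in precursors. In RNA from whole cultures, fewer cells of a type and less RNA per cell cannot be told apart. Endothelial Cdh5 (-1.21) and Pecam1 (-0.34) and myeloid Fcer1g (-1.01) and Tyrobp (-0.38) were lower in neurons than in precursors on the log2 scale, and myeloid Aif1 was higher (0.41). Aif1 exceeded the array median only in neurons, and Pecam1 only in the other cultures. Each was thus tested only through groups where it was high. Tyrobp was below the array median in neuron replicates 2 and 3 (6.68 and 6.47). The 3 endothelial markers summed to 299.2 to 319.4 in neurons, against 487.3 to 523.3 in precursors, and the 5 myeloid markers to 659.2 to 752.2 in neurons, against 825.1 to 934 in precursors. Of the oligodendrocyte lineage Olig2 was lower in neurons (-0.30), and the tested fibroblast markers Col1a1 and Dcn did not pass in this comparison. In the co-culture the 3 fibroblast markers summed to 345.4 to 752.6, against 310.1 to 384.1 in precursors, and the endothelial markers to 485.8 to 631.5. Co-culture replicate 2 was the high array, with Dcn at 8.25, against 6.97 and 6.42 in replicates 1 and 3. Cdh5 (8.67) and the dim Lum (7.47) and Pdgfra (6.81) were also highest in that co-culture array. Against precursors Dcn did not pass in the co-culture (difference 0.65, adjusted p = 0.462). The part of these markers in the results for the lipid genes was not tested.

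Most genes of cholesterol synthesis were higher in neurons than in precursors. Of the 28 genes, 19 were higher in neurons than in precursors, where 28.0% of all tested genes were called higher, and 3 were lower, where 35.2% of all tested genes were called lower (limma, Benjamini-Hochberg adjustment over all tested genes, threshold 0.05). The median difference was 0.27 on the log2 scale over the 28 genes and -0.02 over all tested genes. The groups did not overlap for 22 of the 28 genes, where 66.4% of all tested genes had no overlap. All 16 enzymes from Hmgcs1 to Dhcr7 had a positive difference, between 0.05 and 1.04, with a median of 0.43, and 12 of the 16 passed the test. Among the 4 enzymes of fatty acid synthesis all 4 were higher, with a median of 0.31.

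**Figure D1:**
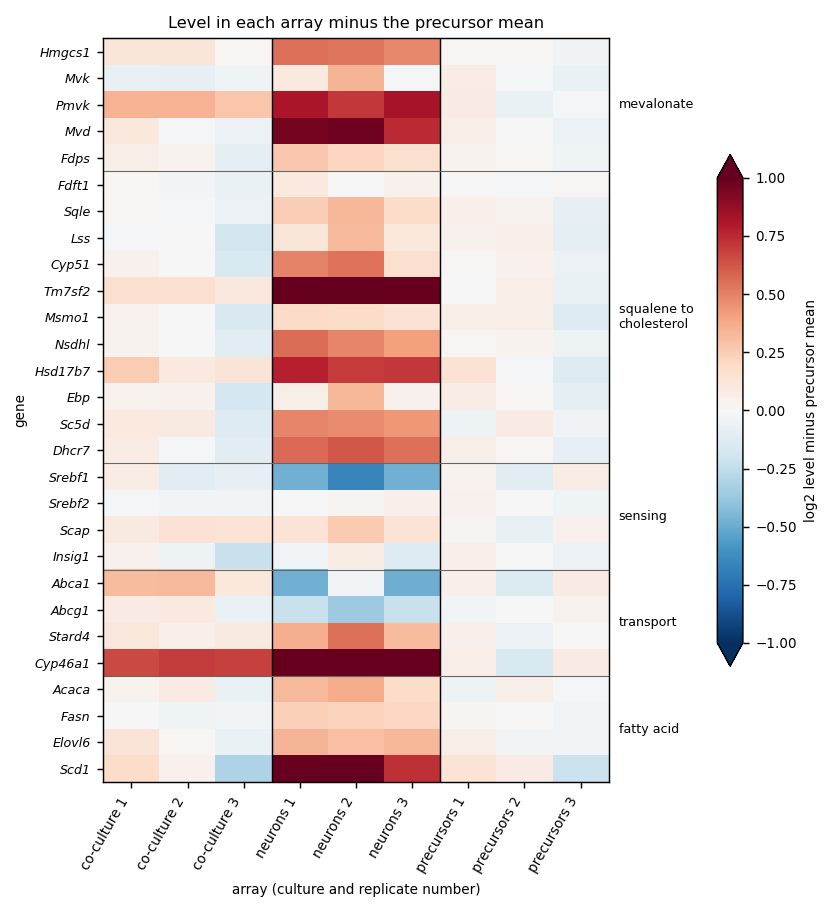
Log2 level of each of the 28 genes in each array, shown as its difference from the gene's mean in precursors, with genes in rows by role and arrays in columns in the order co-culture, neurons, precursors. Colours stop at a difference of 1 in either direction. Most enzymes are red in the 3 neuron arrays and pale in the co-culture arrays, Cyp46a1 and Pmvk are red in both, and Srebf1 is blue in neurons.

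The mevalonate branch builds the isoprenoid units, and 4 of its 5 tested enzymes were higher in neurons, with a median difference of 0.52. Over all tested genes 28.0% were called higher. Hmgcs1, which makes the precursor of mevalonate, had log2 levels of 11.98, 11.97 and 11.91 in neurons, against 11.45, 11.45 and 11.39 in precursors. The groups did not overlap, and neurons were 1.43-fold higher (95% interval 1.33 to 1.54, adjusted p = 5.87e-06). Pmvk, which adds the second phosphate to mevalonate, was at 8.63, 8.52 and 8.64 in neurons, against 7.90, 7.75 and 7.80 in precursors. Every neuron array lay above every precursor array, by 1.72-fold in the mean (1.58 to 1.87, adjusted p = 1.01e-06).

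Mvd, which removes the carboxyl group to give the isoprenoid unit, differed most in this branch. It had levels of 9.24, 9.25 and 9.03 in neurons, against 8.34, 8.27 and 8.22 in precursors. That made Mvd 1.86-fold higher in neurons (1.66 to 2.08, adjusted p = 2.73e-06). The difference was smaller for Fdps, which joins the units into farnesyl diphosphate, at 1.16-fold (adjusted p = 0.00603). Mvk, which adds the first phosphate to mevalonate, had a difference of 0.14 that did not pass (adjusted p = 0.168), though it did without neuron replicate 3 (0.0315). The 4 higher members of this branch thus ranged from 0.21 to 0.89 on the log2 scale.

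In the branch from squalene to cholesterol, 8 of 11 enzymes were higher in neurons, where 28.0% of all tested genes were called higher, with a median difference of 0.40. Tm7sf2, a reductase of the sterol ring, had levels of 10.00, 9.99 and 10.02 in neurons, against 8.97, 9.03 and 8.89 in precursors. The neuron arrays lay close together, and the 2.06-fold difference (1.92 to 2.21, adjusted p = 4.3e-08) was the largest among the 16 enzymes. Hsd17b7, which reduces the keto group left after a methyl group is removed, was at 9.55, 9.47 and 9.48 in neurons, against 8.92, 8.76 and 8.64 in precursors. Its difference was 1.66-fold (1.48 to 1.86, adjusted p = 1.26e-05), with no overlap between the groups.

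Nsdhl, Sc5d and Dhcr7 were also higher in neurons. Nsdhl, a dehydrogenase that takes part in removing the same methyl groups, was at 11.88, 11.80 and 11.73 in neurons, against 11.34, 11.35 and 11.26 in precursors. Sc5d, the desaturase of the penultimate steps, was at 10.70, 10.69 and 10.65 in neurons, against 10.17, 10.30 and 10.19 in precursors. Dhcr7, the reductase of the last step to cholesterol, was at 9.90, 9.96 and 9.88 in neurons, against 9.40, 9.35 and 9.26 in precursors. None of these 3 genes had overlapping groups, and the differences were 1.40-fold for Nsdhl (adjusted p = 3.76e-05), 1.38-fold for Sc5d (adjusted p = 0.000171) and 1.49-fold for Dhcr7 (adjusted p = 1.65e-05).

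Smaller differences were measured for the other 6 enzymes of the branch. Fdft1, which joins farnesyl units into squalene, had a difference of 0.05 (adjusted p = 0.378), with levels of 12.16, 12.06 and 12.10 in neurons, against 12.06, 12.04 and 12.07 in precursors. Its standard error of 0.044 was the third smallest among the members, after Fasn and Srebf2. Sqle, which adds oxygen to squalene, was 1.19-fold higher in neurons (adjusted p = 0.00273), and Cyp51, which removes a methyl group from lanosterol, was 1.32-fold higher (adjusted p = 0.00494). Ebp, the isomerase, had a difference of 0.14 that did not pass (adjusted p = 0.198).

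Lss and Msmo1 lay at the threshold, so that single arrays decided their call. Lss, which closes the rings to lanosterol, had a difference of 0.18 with an adjusted p of 0.0592. It passed without neuron replicate 3 (0.0486), without co-culture replicate 3 (0.0488) and with the replicate number as a block (0.0156). Msmo1, the oxidase that acts on the methyl groups, had a difference of 0.17 with an adjusted p of 0.0495. It did not pass without neuron replicate 1 (0.111), 2 (0.0911) or 3 (0.0709), without precursor replicate 3 (0.178), or without co-culture replicate 1 (0.0552) or 2 (0.0637).

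**Figure D2:**
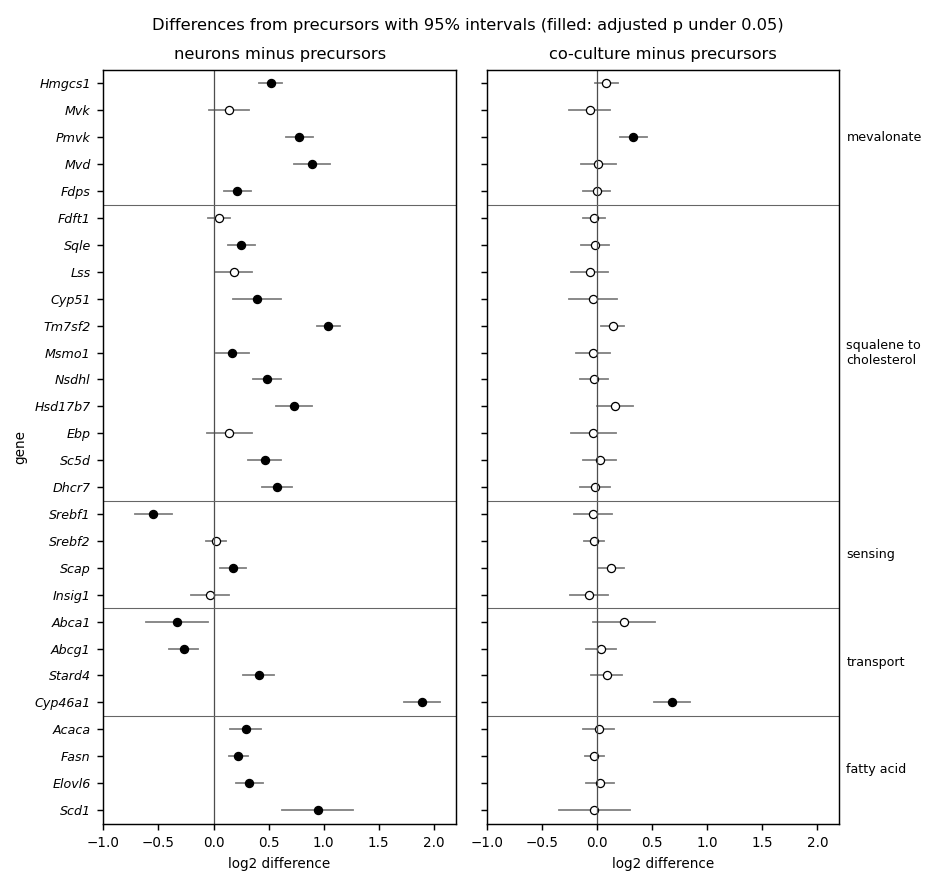
Log2 difference of each of the 28 genes for neurons minus precursors (left) and co-culture minus precursors (right), with bars for the 95% interval and filled points where the adjusted p was under 0.05. All 16 enzymes sit right of 0 in the left panel and most lie near 0 in the right one, where the filled points are Cyp46a1 and Pmvk.

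The stretches before the starts of these genes were read for 3 short motifs, of the Srebf proteins and of factors that act with them. The motifs were TCACNCCAC, one form of the sterol regulatory element, CCAAT, the box of NF-Y, and GGGCGG, the box of Sp factors, each searched on both strands in the 250 bases before each start in the RefSeq promoters of GRCm38.p6. Entries matched 25 of the 32 members. CCAAT was found in 19 of the 25 genes (76%), where 37.5% of all genes in the table had it, and GGGCGG in 20 (80%), against 35.4% of all genes. Among 15 cholesterol enzymes, 14 had CCAAT and 14 had GGGCGG. These 15 are not the enzymes with tested levels: they include Acat2 and Idi1 and lack Fdps, Fdft1 and Sqle, which had no entry. The 25 genes also include Nr1h2, whose level was not analysed. The form TCACNCCAC was found in 1 member, Hmgcs1, against 1.22% of all genes. A match describes letters only, and other forms of the element were not searched. The shares of all genes were taken with no filter on level, while the 28 tested members lay above the array median in every array. Shares over the tested genes alone were not counted. A gene with several listed starts counts once if any of them has the motif.

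The sequences of 4 of these windows are shown 5′ to 3′ on the gene's own strand, with motif matches in capitals: Hmgcs1 because it holds the sterol element form, Mvd and Tm7sf2 as the enzymes with the largest difference in each branch, and Cyp46a1 as the member with the largest difference of all. The windows are chr13:119690101-119690350 on the plus strand for Hmgcs1, chr8:122443423-122443672 on the minus strand for Mvd, chr19:6067851-6068100 on the minus strand for Tm7sf2 and chr12:108334066-108334315 on the plus strand for Cyp46a1.
Hmgcs1: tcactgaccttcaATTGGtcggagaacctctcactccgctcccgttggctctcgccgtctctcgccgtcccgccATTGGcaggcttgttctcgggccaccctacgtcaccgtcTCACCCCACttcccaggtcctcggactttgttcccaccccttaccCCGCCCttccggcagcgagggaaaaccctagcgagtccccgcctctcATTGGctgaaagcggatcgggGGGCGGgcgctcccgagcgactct
Mvd: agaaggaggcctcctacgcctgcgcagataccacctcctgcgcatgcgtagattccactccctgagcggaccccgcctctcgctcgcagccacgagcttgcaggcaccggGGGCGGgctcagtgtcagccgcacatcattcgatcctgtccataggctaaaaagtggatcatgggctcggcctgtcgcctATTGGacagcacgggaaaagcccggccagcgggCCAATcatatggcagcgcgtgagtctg
Tm7sf2: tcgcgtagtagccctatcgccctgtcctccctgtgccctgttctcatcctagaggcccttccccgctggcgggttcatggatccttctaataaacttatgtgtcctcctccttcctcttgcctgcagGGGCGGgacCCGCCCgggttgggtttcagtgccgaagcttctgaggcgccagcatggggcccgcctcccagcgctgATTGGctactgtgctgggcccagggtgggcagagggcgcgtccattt
Cyp46a1: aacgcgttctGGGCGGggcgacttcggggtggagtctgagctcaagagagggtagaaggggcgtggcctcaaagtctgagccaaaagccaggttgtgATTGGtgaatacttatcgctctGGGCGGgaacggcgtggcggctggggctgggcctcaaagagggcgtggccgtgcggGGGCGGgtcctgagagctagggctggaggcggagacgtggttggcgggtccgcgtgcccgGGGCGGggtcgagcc
Hmgcs1 has its sterol element form starting 137 bases before the start, with CCAAT matches at 237, 176 and 45 and GGGCGG matches at 92 and 24. In Mvd the CCAAT matches begin at 60 and 27 and the GGGCGG match at 140 bases before the start. Tm7sf2 has 1 CCAAT match at 47 and GGGCGG at 123 and 114. In Cyp46a1 GGGCGG matches begin at 240, 131, 75 and 15 bases before the start, and the CCAAT match at 153.

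Of the 4 tested genes that sense sterol and control the pathway, Scap was higher in neurons than in precursors, Srebf1 was lower, and Srebf2 and Insig1 did not pass. Srebf2, the factor that acts mainly on cholesterol genes, was at 11.02, 11.05 and 11.07 in neurons, against 11.06, 11.02 and 10.98 in precursors, and its groups overlapped. Its difference was 0.03 with a standard error of 0.041 (adjusted p = 0.609). Insig1, which is itself a target of these factors, was at 10.68, 10.79 and 10.58 in neurons, against 10.77, 10.72 and 10.65 in precursors. It differed by -0.03 (adjusted p = 0.77), with a 95% interval of the fold from 0.870 to 1.10.

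Srebf1, the factor tied more to fatty acid genes, was lower in neurons. Its levels were 7.63, 7.45 and 7.63 in neurons, against 8.15, 8.00 and 8.19 in precursors. All neuron arrays lay under all precursor arrays, at a fold of 0.685 (0.608 to 0.771, adjusted p = 0.000137). Scap was 1.13-fold higher in neurons (adjusted p = 0.0136), a call that ended without precursor replicate 2 (0.0531) and when the mean of its 2 probe sets was used (0.128), the second of which was dim.

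Among the 4 genes that export, carry or break down sterol, 2 were higher and 2 lower in neurons. With so few genes these counts are no result about the list beside the shares over all tested genes, 28.0% higher and 35.2% lower. Cyp46a1, the hydroxylase of neurons that turns cholesterol into a form able to leave the brain, had levels of 9.70, 9.51 and 9.69 in neurons, against 7.81, 7.59 and 7.82 in precursors. The 3.72-fold difference (3.31 to 4.17, adjusted p = 2.1e-08) was the largest of the 28 genes. Stard4, which carries sterol between membranes, was at 8.12, 8.31 and 8.07 in neurons, against 7.81, 7.70 and 7.76 in precursors. No array of one group reached the other, and neurons were 1.33-fold higher (adjusted p = 0.000301).

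The exporters went the other way. Abcg1 was at 7.77, 7.63 and 7.78 in neurons, against 7.97, 7.99 and 8.03 in precursors, a fold of 0.829 (adjusted p = 0.00271). Abca1 was at 7.53, 7.98 and 7.52 in neurons, against 8.06, 7.87 and 8.09 in precursors. The groups of Abca1 overlapped, since neuron replicate 2 lay above precursor replicate 2, and its fold of 0.794 had an adjusted p of 0.0412. It did not pass without neuron replicate 1 or 3 (0.139 each), without precursor replicate 1 (0.107) or 3 (0.123), or without co-culture replicate 1 (0.0545) or 2 (0.052).

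Fatty acid synthesis starts with Acaca, which makes malonyl-CoA, and Fasn, which builds the chain. Fasn was 1.17-fold higher in neurons (adjusted p = 0.000609), and Acaca was 1.23-fold higher (adjusted p = 0.00221). Elovl6, which lengthens the product, was 1.25-fold higher (adjusted p = 0.0005). Scd1, which puts in the double bond, was at 9.89, 9.98 and 9.62 in neurons, against 9.02, 8.96 and 8.67 in precursors. Its groups did not overlap despite the widest spread of this branch, and it was 1.92-fold higher in neurons (1.54 to 2.40, adjusted p = 0.000243).

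**Figure D3:**
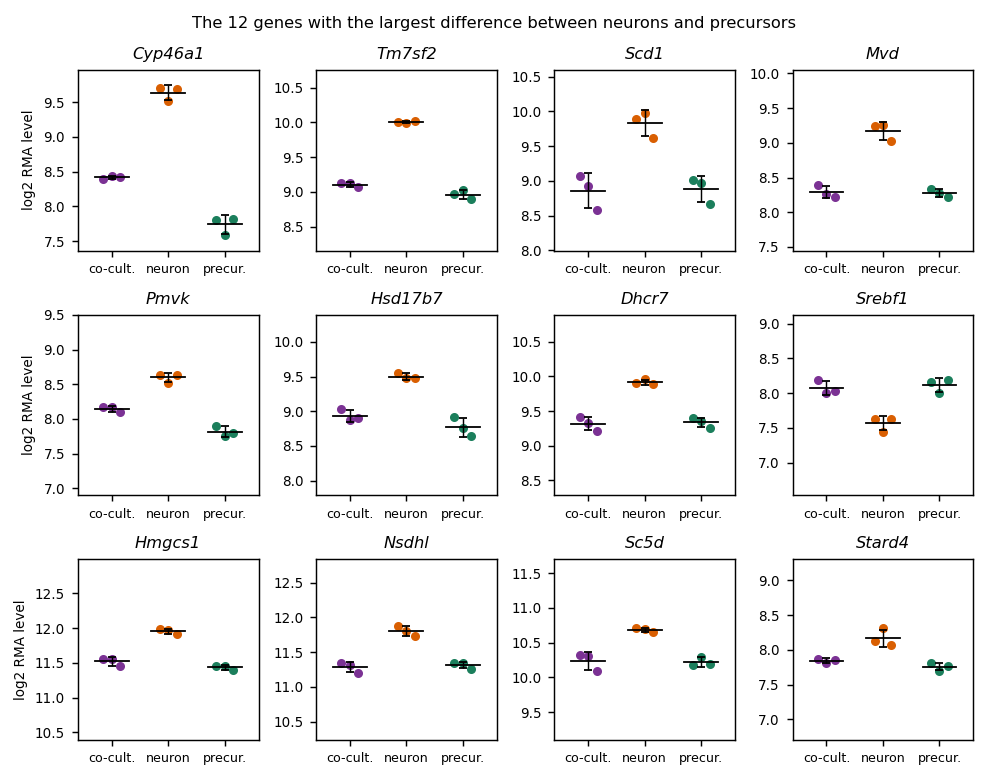
Log2 levels of the 12 genes with the largest difference between neurons and precursors, 1 point per array, with the group means as lines and bars of 1 SD, in the order co-culture, neurons, precursors. Neuron points lie above precursor points for 11 of the 12 genes and below them for Srebf1, and the co-culture mean is nearer to the precursor mean than to the neuron mean for all 12.

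Other genes of the same pathways were counted in the same comparison, where 28.0% of all tested genes were called higher and 35.2% lower. Of 15 other tested genes of acetyl-CoA supply, chain making and chain lengthening, out of 18 listed, 7 were higher and 4 lower in neurons, with a median difference of 0.10. Slc25a1, which exports citrate from mitochondria, was at 10.82, 10.77 and 10.73 in neurons, against 10.08, 10.08 and 10.03 in precursors (difference 0.71, adjusted p = 3.09e-07). Acss2, which makes acetyl-CoA from acetate, differed by 0.82 (adjusted p = 0.000136). The elongase Elovl7, counted among the 7, differed by 0.88, at 7.10, 7.35 and 7.31 in neurons, against 6.49, 6.20 and 6.44 in precursors. It exceeded the array median (6.75 to 6.79 over the arrays) only in neurons. Elovl7 was therefore tested only through the group where it is high, and its call is no support. Mid1ip1, which helps to activate Acaca, was lower in neurons, with a difference of -0.67 (adjusted p = 3.47e-05). Its other probe sets were dim and went in opposite directions, with means of 6.628 and 6.411 in neurons, against 6.525 and 6.701 in precursors.

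In a list of 17 genes of sterol uptake, storage and control, 11 were tested, of which 4 were higher and 2 lower in neurons, with a median difference of 0.04. With so few genes these counts are no result about the list beside the shares over all tested genes, 28.0% higher and 35.2% lower. Lrp1, a lipoprotein receptor, was at 10.22, 10.28 and 10.20 in neurons, against 9.61, 9.65 and 9.65 in precursors (difference 0.60, adjusted p = 1.17e-06). Mylip, which marks lipoprotein receptors for breakdown, differed by 0.51 (adjusted p = 0.000107), and Mbtps2, a protease that frees the Srebf proteins, by 0.47 (adjusted p = 2.8e-05). Npc2, which takes cholesterol out of lysosomes, was lower, at 9.72, 9.75 and 9.63 in neurons, against 10.26, 10.14 and 10.26 in precursors (difference -0.52, adjusted p = 1.19e-05).

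Precursors grown on neurons were next compared with precursors alone. The limma fit had no term for the replicate number. The co-culture holds RNA of both cell types. Only Cyp46a1 and Pmvk among the 28 genes were higher in the co-culture, where 8.22% of all tested genes were called higher, and none was lower, where 0.200% of all tested genes were called lower. At an unadjusted p under 0.05 limma would call 2346 of all tested genes in either direction. The median difference was -0.01 over the 28 genes and 0.02 over all tested genes. The groups did not overlap for 5 of the 28 genes, where 24.8% of all tested genes had no overlap.

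Cyp46a1 had levels of 8.40, 8.44 and 8.43 in the co-culture, against 7.81, 7.59 and 7.82 in precursors. The co-culture arrays lay close together and above all precursor arrays, at 1.60-fold (1.43 to 1.80, adjusted p = 0.000331). Pmvk was at 8.17, 8.17 and 8.10 in the co-culture, against 7.90, 7.75 and 7.80 in precursors, 1.25-fold higher with no overlap (adjusted p = 0.00467). Both genes were also higher in neurons than in precursors, a comparison that shares the precursor arrays and so is not independent of this one.

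The other enzymes lay close to precursors, with a median difference of -0.02 over all 16. Mvd was at 8.39, 8.26 and 8.22 in the co-culture, against 8.34, 8.27 and 8.22 in precursors, and these ranges overlap almost fully. The fold of Mvd was 1.01 with a 95% interval of 0.901 to 1.13 (adjusted p = 0.968). For Dhcr7 the fold was 0.988 (0.900 to 1.08, adjusted p = 0.941) and for Nsdhl 0.980 (0.898 to 1.07, adjusted p = 0.882). Scd1, with 9.07, 8.93 and 8.58 in the co-culture, against 9.02, 8.96 and 8.67 in precursors, had a fold of 0.982 and a wider interval, 0.786 to 1.23. Tm7sf2 had a difference of 0.14 that did not pass (adjusted p = 0.105), although its groups did not overlap. It passed with a filter at the 75th percentile (0.0478) and with array weights (0.0425), and was the only member whose call changed here. A p above the threshold does not show that levels were alike, and the intervals give what these arrays could leave unseen.

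Of the neuronal markers 4 of 7 were higher in the co-culture than in precursors, Mapt, Nefl, Snap25 and Syt1, with differences between 0.33 and 0.65. Among the neighbouring genes, Slc25a1 (difference 0.18, adjusted p = 0.0263) and Lrp1 (difference 0.22, adjusted p = 0.0113) were the members of their lists that passed, both higher in the co-culture.

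Against neurons the co-culture shares the neuron arrays with the first comparison, so the 2 are not independent. In the co-culture 19 of the 28 genes were lower, where 24.9% of all tested genes were called lower, and 3 were higher, where 35.7% of all tested genes were called higher. The median difference was -0.27 over the 28 genes and 0.03 over all tested genes, and -0.43 over the 16 enzymes, of which 13 were lower. The groups did not overlap for 25 of the 28 genes, where 65.4% of all tested genes had no overlap. Of all calls 58.9% were higher in the co-culture, and 41.4% when arrays were centred on the median of tested genes, a setting chosen after seeing the data that moved the median of all genes to -0.08 and that of the members to -0.39. Tm7sf2 was at 9.12, 9.12 and 9.07 in the co-culture, against 10.00, 9.99 and 10.02 in neurons. The levels of neurons exceeded those of the co-culture in all arrays, with a difference of -0.90 (adjusted p = 2.27e-07).

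Differences of similar size were seen for Mvd (-0.88, adjusted p = 4.41e-06) and Scd1 (-0.97, adjusted p = 0.00024), and the largest for Cyp46a1 (-1.21, adjusted p = 6.89e-07). The 3 genes that were higher in the co-culture were Srebf1, Abca1 and Abcg1. Srebf1 was at 8.19, 8.00 and 8.04 in the co-culture, against 7.63, 7.45 and 7.63 in neurons (1.42-fold, adjusted p = 0.000275). Abca1 was at 8.32, 8.33 and 8.11 in the co-culture, against 7.53, 7.98 and 7.52 in neurons, 1.49-fold higher with no overlap (adjusted p = 0.00269). Abcg1 was at 8.08, 8.10 and 7.93 in the co-culture, against 7.77, 7.63 and 7.78 in neurons, and was 1.24-fold higher (adjusted p = 0.00141).

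Single arrays decided 3 of the enzyme calls here. Lss, called lower with a difference of -0.25 (adjusted p = 0.0168), did not pass without co-culture replicate 3 (0.065). Msmo1, called lower with a difference of -0.21 (adjusted p = 0.0233), did not pass without neuron replicate 1 (0.0613) or co-culture replicate 3 (0.0875). Mvk did not pass (difference -0.21, adjusted p = 0.053), but did without neuron replicate 3 (0.0104).

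Because the co-culture RNA is a mixture, each level was also set against the one that mixing the separate cultures would give. The members were left out when the neuron share of the RNA was estimated. It was 22.6% from 105 genes that neurons expressed at least 4-fold above precursors and 10.5% from 109 genes with the opposite 4-fold difference, and the mean of 16.6% was used. No member passed in either direction, where 0.361% of all tested genes were called above and 0.0307% below the prediction by limma. At an unadjusted p under 0.05, 1076 of all tested genes passed, among them Mvd, Pmvk, Dhcr7, Nsdhl and Abca1 of the members.

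Of the 28 members 8 lay above the prediction, with a median of -0.05, while 71.2% of all tested genes lay above it, with a median of 0.03. Among the 16 enzymes 14 lay below it, between -0.18 and -0.01, and Pmvk and Hsd17b7 above it. Without co-culture replicate 3 the count below was 10, and with the neuron share lowered by 10 percentage points it was 12. Mvd, at 8.39, 8.26 and 8.22 in the co-culture against a predicted 8.47, was the enzyme farthest below (difference -0.18, standard error 0.064, unadjusted p = 0.0196, adjusted p = 0.452). Dhcr7 lay at -0.13 (adjusted p = 0.554) and Nsdhl lay at -0.12 (adjusted p = 0.561). Pmvk was 0.16 above (adjusted p = 0.344), Cyp46a1 0.14 above (adjusted p = 0.606) and Abca1 0.30 above (adjusted p = 0.523). With the share lowered by 10 percentage points, Pmvk (0.26, adjusted p = 0.0202) and Cyp46a1 (0.44, adjusted p = 0.00477) passed. The error of the share is not part of this test.

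**Figure D4:**
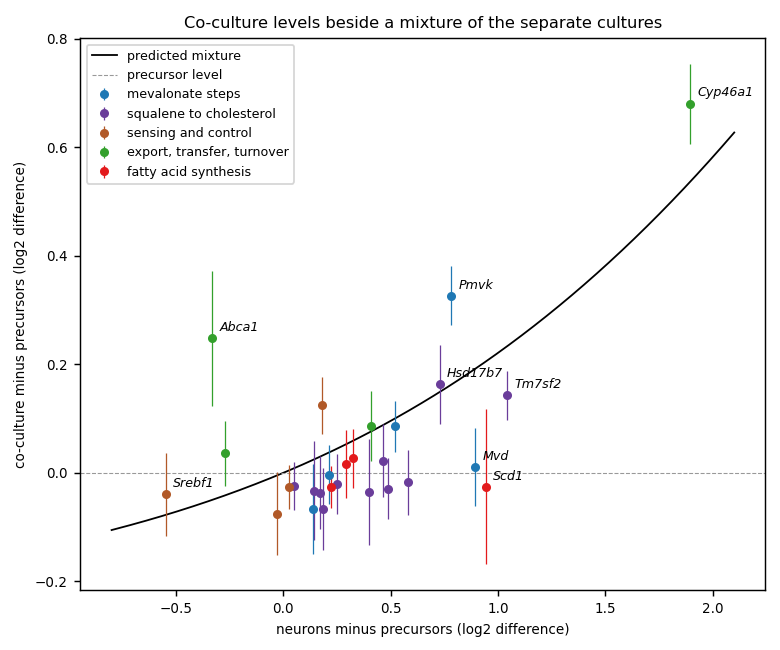
Log2 difference of co-culture minus precursors (vertical axis) against that of neurons minus precursors (horizontal axis) for the 28 genes, coloured by role, with bars of 1 standard error. The curve is the level that a mixture with a neuron share of 16.6% would give, the dashed line is the precursor level, and 14 of the 16 enzymes lie below the curve. Both axes share the precursor arrays, so they are not independent.

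On a scale that runs from the precursor level at 0% to the neuron level at 100%, the 12 enzymes that were higher in neurons lay at a median of -0.363% in the co-culture, with 6 below 0. They ranged from -19.7% for Msmo1 to 35.4% for Pmvk. Cyp46a1 lay at 22.2%, Stard4 at 18.8%, Hsd17b7 at 18.2% and Hmgcs1 at 14.1%. Mvd at 0.9%, Scd1 at -1.92% and Dhcr7 at -2.4% lay at the precursor end. Over all 22 members called between neurons and precursors the extremes were Abca1 at -91.1% and Scap at 68.6%, both with small differences between the separate cultures. No test was made of these positions one by one beyond that against the predicted mixture.

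The enzymes also varied together among the arrays of a group. In the co-culture 15, 11 and 1 of the 16 enzymes lay above their group mean in replicates 1, 2 and 3, and in neurons 10, 11 and 2 did. Precursors had 15, 11 and 1 above the mean. The arrays numbered 3 were thus the low ones in all 3 groups, with mean deviations of -0.077 in the co-culture, -0.063 in neurons and -0.064 in precursors. Over all tested genes, 39.0% lay above the group mean in co-culture replicate 3, 45.5% in neuron replicate 3 and 58.6% in precursor replicate 3. Scd1 had the widest such range, with 8.58 in co-culture replicate 3 and 9.07 in replicate 1. These deviations are a description and were not tested, and the labels do not say what arrays of 1 number share.

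**Figure D5:**
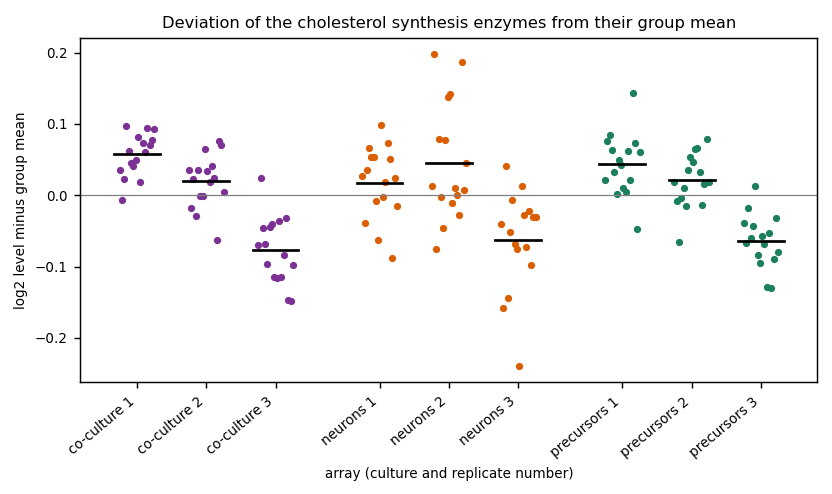
Deviation of each of the 16 cholesterol enzymes from its group mean, on the log2 scale, in each of the 9 arrays, 1 point per gene, with the mean as a line. In the arrays numbered 3 most points lie below 0, with means of -0.077 in the co-culture, -0.063 in neurons and -0.064 in precursors.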

How the data were processed

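The authors deposited a log2 level for every probe set of each array. Per the submitters' processing notes it comes from RMA as run by oligo, and per the labels' protocols each array took 100 ng of total RNA. Of 41345 probe sets, 23521 carry 1 gene symbol in the platform table, and the one with the highest mean stood for each gene. A gene was tested if it exceeded the array's median probe set in 3 or more arrays. One model of 3 groups was fitted to all tested genes with limma 3.58.1 (lmFit and eBayes, R 4.3.3), with two-sided p-values adjusted by the Benjamini-Hochberg method over 13012 genes. Promoters were read with Python 3.11.15. Arrays have no read depth, so their number limits precision. The fit was also run on simulated data, with another neuron share and far fewer changed genes than here, so that run does not give the power of these tests.

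The members, the lists of other pathway genes and the markers were chosen with earlier results of these data known. All members are accounted for, and the 12 with the largest difference between neurons and precursors are given by array, with some of the others. Up to 4 genes of each other list are named. The deviations of same-numbered co-culture and precursor arrays from their group means correlated at 0.345, 0.300 and 0.161. The correlations were 0.00431, 0.134 and -0.148 for neurons and precursors, and -0.00511, 0.268 and 0.17 for the co-culture and neurons. With 3 arrays a group these values cannot settle whether the numbers pair any of the groups. The main fit has no term for the replicate number. Other scalings, filters, array weights, probe set rules, neuron shares, a replicate block and the omission of single arrays were tried as alternatives.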

Additional observations from a re-analysis of the deposited data

How the results depend on the processing

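Of 2168 values of single members under the alternatives, 2114 stayed on their side of the threshold, 24 no longer passed and 30 newly passed, and no value past the threshold changed sign. Among the 2114 the sign changed in 64, none of them past the threshold, with 31 for the co-culture against precursors, 28 against the predicted mixture, 2 for the co-culture against neurons and 3 for neurons against precursors. With a filter at the 75th percentile, 0 members were lower in neurons than in precursors and 0 were higher in the co-culture than in neurons, because that filter leaves out dim genes such as Srebf1, Abca1 and Abcg1. With the neuron share lowered by 10 percentage points, 2 members lay above the predicted mixture. Leaving out 1 array at a time gave 18 to 20 members higher and 2 to 3 lower in neurons than in precursors, 2 and 0 in the co-culture than in precursors, 3 higher and 17 to 20 lower in the co-culture than in neurons, and none off the mixture. With the replicate block, 20 members were higher in neurons than in precursors in place of 19, and Lss was the only member whose call changed.

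Counts over all genes moved more. For the co-culture against precursors, the 1069 higher genes were 676 without co-culture replicate 2 and 692 with each array centred on the median of tested genes, a setting chosen after seeing the data, and the 26 lower genes ranged from 7 to 51 without single arrays and from 21 to 98 otherwise. That centring gave 4925 genes lower in the co-culture than in neurons, in place of 3236. The 47 genes above the mixture ranged from 9 to 47 without single arrays and from 2 to 578 otherwise, and the 4 below it from 0 to 12. Cyclic loess gave a median of 0.37 for the members between neurons and precursors, where all genes were at 0.01.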
